A study of Mus musculus with 4 samples.

Results

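The genes described here build the neurotransmitter release machinery on the axon side of a synapse and the scaffold that faces it on the dendrite side. They are 36 of the 21938 protein-coding genes in the mouse annotation. They were taken from a list drawn up by role, and each was looked for in 4 lists of open-chromatin peaks from hippocampus at birth. By role they comprise 7 proteins of the synaptic vesicle, 4 synaptotagmins, a family that includes the calcium sensors of release, 4 SNARE (vesicle fusion) proteins, 5 proteins of the active zone, 3 transporters that fill vesicles with transmitter, 5 adhesion proteins that span the cleft, 6 postsynaptic scaffold proteins and 2 subunits of the kinase CaMKII. A peak counted as a promoter peak of a gene when its summit, the point of highest signal, lay within 2 kb of an annotated transcription start site (TSS) of that gene. A gene-body peak had its summit inside the gene and over 2 kb from all of its TSSs.

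ATAC-seq, which finds open chromatin by where the transposase Tn5 can cut, was run on hippocampi dissected at postnatal day 0 (P0), with 2 cKO and 2 Ctrl samples. The libraries are called Ctrl1, Ctrl2, cKO1 and cKO2 by group and replicate number. The cKO genotype is Kdm2bEmx1-delta-CxxC, in which Emx1-Cre removes the exon for the CpG-binding CxxC zinc finger of KDM2B, a subunit of a Polycomb repressive complex. The recombinase acts in the dorsal telencephalon, so interneurons, microglia and vessels of the dissected tissue keep the intact gene. Ctrl samples are Kdm2bfl/+ or Kdm2bfl/fl, and the labels do not say which library had which genotype. The labels disagree on the tissue, since the source is given as neural progenitor cells (NPCs) but titles and protocol say hippocampus, which is used here. No label ties a replicate to an animal, so p-values measure only the spread between these samples, which may be technical.

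The 4 lists were of very unequal length, from 7037 peaks in Ctrl2 to 46389 in Ctrl1. Ctrl2 stood apart: its genome-wide mean depth was the highest, at 3.46 fragments against 1.62 to 2.07, and 60.6% of its peaks were mostly repeat sequence, against 5.37 to 14.7% in the other libraries. The peaks rested on few fragments, with a median of 18 to 20 over the summit in each library. Of the marker genes checked, a promoter peak was found in Ctrl1, Ctrl2, cKO1 and cKO2, in that order, for 5, 0, 2 and 6 of 7 genes of dorsal forebrain neurons and for 4, 0, 3 and 5 of 5 progenitor genes. The counts were 4, 0, 1 and 2 of 6 interneuron genes, 1, 0, 0 and 1 of 4 microglial genes and 1, 0, 0 and 1 of 4 oligodendrocyte genes, and 0 in every list for the 3 endothelial genes and for the 4 genes of other tissues.

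Release of transmitter needs a chain of proteins. Synapsins and Rab3a hold and position the vesicle, Bassoon, Piccolo, RIM and Munc13 proteins dock and prime it at the active zone, the SNARE proteins fuse it with the membrane, and some synaptotagmins trigger that fusion when calcium enters. Across the cleft, presynaptic neurexins bind postsynaptic neuroligins, and PSD-95 (Dlg4), its relative PSD-93 (Dlg2), Shank and Homer proteins anchor receptors behind the postsynaptic membrane. In the hippocampus most synapses form after birth, so at P0 these genes are sampled in young neurons and in progenitors together. Fewer cells that use a gene and less accessible DNA per cell cannot be told apart in such bulk tissue.

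Promoter sequences are shown for the gene with the highest mean rank in each of 6 roles, since peaks there carry the comparisons below. None is shown for the adhesion role, whose highest gene, Nlgn2, has its peak nearer to another gene, or for the kinase. Each is 300 bases of GRCm38.p6 (mm10), read 5′ to 3′ on the strand of the gene and free of annotated exons. For 5 of them the window ends at the base before the TSS: Homer1 at chr13:93303457-93303756 (+), Rab3a at chr8:70754379-70754678 (+), Vamp1 at chr6:125215251-125215550 (+), Pclo at chr5:14514618-14514917 (+) and Syt1 at chr10:109010983-109011282 (−). The window of Slc17a7, chr7:45162077-45162376 (+), is centred on the summit in Ctrl1, which lay 1722 bp upstream of the TSS. Capitals mark matches on either strand. The letters searched were GGGCGG for the GC box, CCAAT for the box of that name, TGACGTCA for the cAMP response element, GCGCATGCG for the factor NRF1 and TATAAA for the TATA box. No match in these 6 windows overlapped another.
Homer1: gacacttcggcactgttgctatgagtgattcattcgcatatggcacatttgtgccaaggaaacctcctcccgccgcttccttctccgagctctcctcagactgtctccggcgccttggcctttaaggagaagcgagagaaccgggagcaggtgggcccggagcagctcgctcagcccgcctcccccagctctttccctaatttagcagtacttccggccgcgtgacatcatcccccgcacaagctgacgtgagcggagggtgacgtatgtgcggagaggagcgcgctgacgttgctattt
Rab3a: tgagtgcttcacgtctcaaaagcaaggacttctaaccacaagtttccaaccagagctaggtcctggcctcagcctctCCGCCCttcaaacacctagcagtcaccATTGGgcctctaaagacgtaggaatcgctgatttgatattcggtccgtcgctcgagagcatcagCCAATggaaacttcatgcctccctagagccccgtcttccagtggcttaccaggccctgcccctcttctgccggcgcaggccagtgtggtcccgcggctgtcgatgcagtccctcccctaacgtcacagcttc
Vamp1: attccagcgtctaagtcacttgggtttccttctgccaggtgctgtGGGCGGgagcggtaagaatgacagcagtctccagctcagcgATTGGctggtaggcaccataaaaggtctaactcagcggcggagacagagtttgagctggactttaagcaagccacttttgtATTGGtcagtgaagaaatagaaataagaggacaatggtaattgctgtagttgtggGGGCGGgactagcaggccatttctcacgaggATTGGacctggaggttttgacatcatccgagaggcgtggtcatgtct
Pclo: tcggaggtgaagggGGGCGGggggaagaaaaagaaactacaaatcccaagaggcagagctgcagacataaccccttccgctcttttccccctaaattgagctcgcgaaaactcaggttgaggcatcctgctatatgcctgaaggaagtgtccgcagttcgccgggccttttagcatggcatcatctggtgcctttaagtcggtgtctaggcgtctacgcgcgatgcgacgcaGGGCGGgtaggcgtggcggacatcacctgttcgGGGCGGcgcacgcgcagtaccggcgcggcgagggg
Syt1: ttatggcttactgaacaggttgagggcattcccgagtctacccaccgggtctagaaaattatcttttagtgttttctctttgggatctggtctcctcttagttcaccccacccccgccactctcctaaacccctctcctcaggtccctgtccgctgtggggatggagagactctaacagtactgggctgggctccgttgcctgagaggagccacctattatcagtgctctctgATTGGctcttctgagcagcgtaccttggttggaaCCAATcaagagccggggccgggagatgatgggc
Slc17a7: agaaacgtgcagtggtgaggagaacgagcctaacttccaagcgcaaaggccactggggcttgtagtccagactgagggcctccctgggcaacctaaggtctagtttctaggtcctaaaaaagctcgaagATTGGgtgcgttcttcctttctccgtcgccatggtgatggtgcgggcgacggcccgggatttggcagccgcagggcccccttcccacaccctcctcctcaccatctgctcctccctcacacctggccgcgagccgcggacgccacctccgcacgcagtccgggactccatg

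In the 34 members with a promoter peak in Ctrl1, the 300 bases before the TSS held a GC box in 22 (64.7%), beside 63.4% of all 12728 coding genes whose promoter was open in that library. A CCAAT box was found in 11 (32.4%), beside 40.1%. A TATA box was found in Snap25 and Syt4 (5.88%, beside 7.16%), an NRF1 motif in Bsn and Syn1 (5.88%, beside 3.30%), and a cAMP response element in Dlg4, Snap25 and Syn1 (8.82%, beside 3.27%). The Homer1 window held none of these letters and 23 CpG dinucleotides, whereas the Syt1 window held 2 CCAAT boxes and 8 CpGs. A match describes the letters only, not a site in use.

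Most synaptic genes had an open promoter in the longer lists. A promoter peak was present for 34 of 36 members in Ctrl1, 5 in Ctrl2, 19 in cKO1 and 31 in cKO2. Across all protein-coding genes the share with a promoter peak was 58% in Ctrl1, 8.27% in Ctrl2, 40.3% in cKO1 and 55.9% in cKO2, against 94.4%, 13.9%, 52.8% and 86.1% of the members. The members were above the background share in each of the 4 libraries, by the smallest ratio in cKO1.

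**Figure D1:**
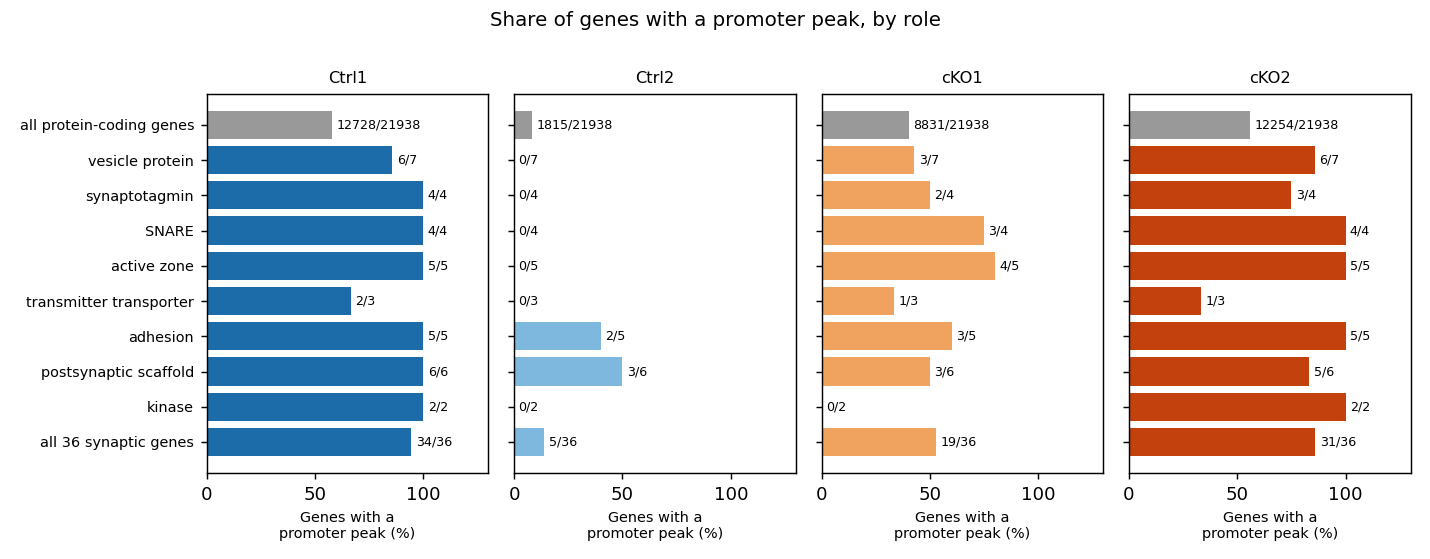
Share of genes (%) with a promoter peak in each library, for all protein-coding genes (grey) and for the synaptic genes by role, with counts at the end of each bar. In Ctrl1 every role but vesicle proteins (6 of 7) and transmitter transporters (2 of 3) is complete, and in Ctrl2 only adhesion and scaffold genes have a peak.

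Between genotypes the number of members with a promoter peak averaged 25 ± 8.49 for cKO against 19.5 ± 20.5 for Ctrl (mean ± SD, n = 2 each), which differ by 5.5 with p = 1 in an exact two-sided permutation test. With 2 libraries a group this test cannot give a p below 0.333. The spread within Ctrl was larger than the difference, and without Ctrl2 the sign turned, to 9 members fewer in cKO. It was 0.5 fewer without cKO2.

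Strength was compared by the promoter percentile, the share of all protein-coding genes whose strongest promoter peak, by −log10 p, was weaker in the same list. It is 0 for a gene with no promoter peak. The mean over the 36 members was 61.5% in Ctrl1, 13.3% in Ctrl2, 41.0% in cKO1 and 58.8% in cKO2. Over all protein-coding genes it was 41.2%, 7.93%, 32.1% and 40.2%. The median percentile of members with a peak was 62.1% in Ctrl1, 96.8% in Ctrl2, 79.0% in cKO1 and 65.0% in cKO2, beside 71.0%, 95.6%, 79.9% and 72.1% for all genes with a peak, so it was lower in 3 of the 4 lists. By genotype the mean over all 36 members averaged 49.9 ± 12.5% for cKO against 37.4 ± 34.1% for Ctrl (n = 2 each), 12.5 percentage points higher in cKO (exact permutation p = 1). The difference was 0.761 points when genes without a peak were given their mid-rank and 6.18 points in lists cut to equal length, and it was −11.6 points when Ctrl2 was left out.

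**Figure D2:**
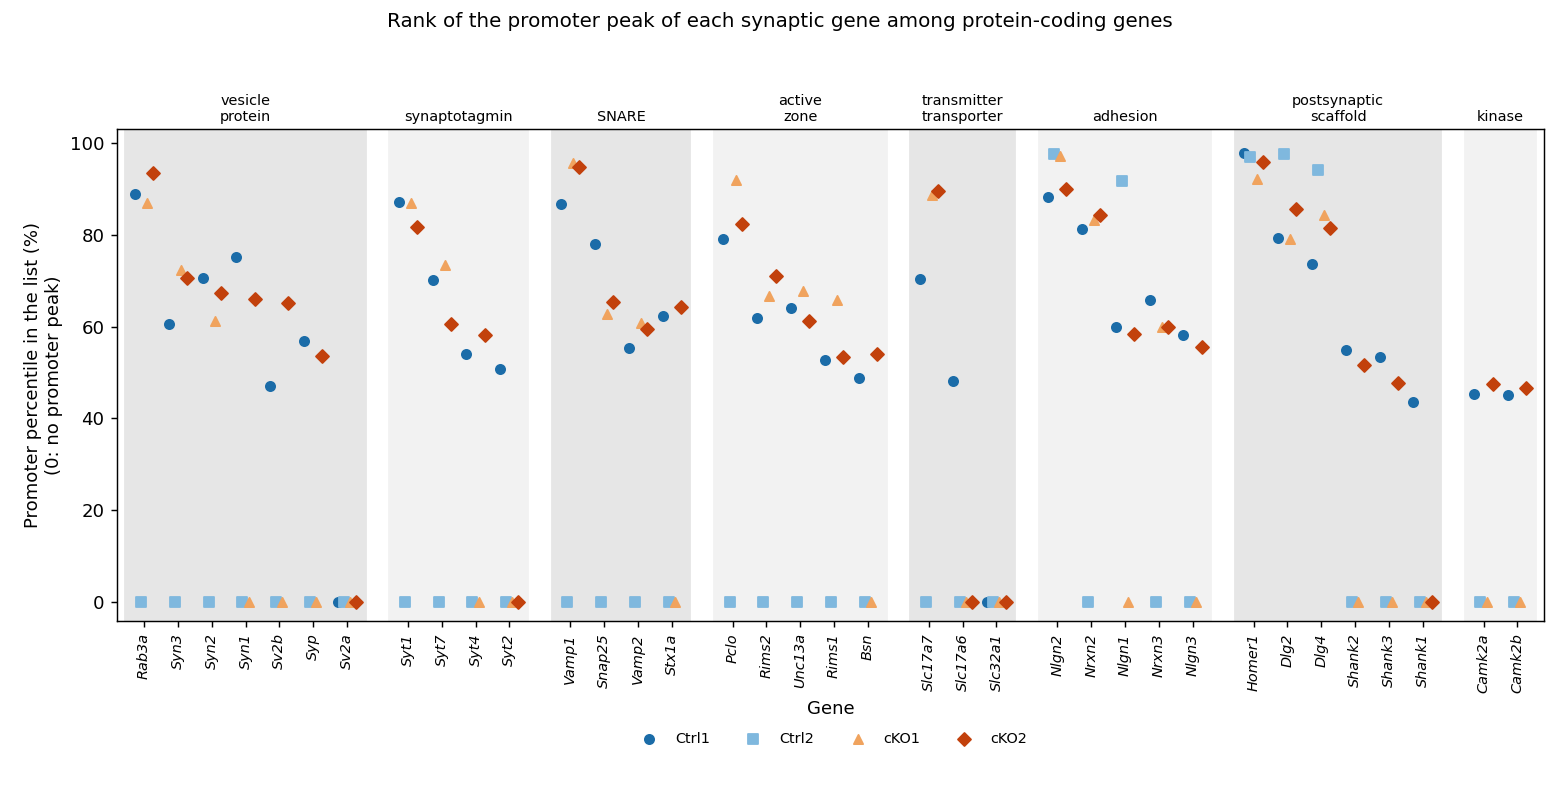
Promoter percentile (%) of each of the 36 genes in the 4 libraries, grouped by role and ordered by mean within a role. Points at 0 are genes without a promoter peak in that library. Homer1, Nlgn2, Dlg2 and Dlg4 lie above 70% in all 4, and most genes drop to 0 in Ctrl2.

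A promoter peak in every list was found for 4 members (11.1%), Homer1, Dlg4, Dlg2 and Nlgn2, beside 8.02% of protein-coding genes. Homer1, the scaffold that links Shank to metabotropic glutamate receptors, had the highest mean percentile of the members, with of 97.8% and 96.8% in the Ctrl libraries and 92.1% and 95.8% in the cKO libraries. Its summit carried 131 and 21 fragments in Ctrl and 43 and 108 in cKO. Both cKO percentiles lay below both Ctrl percentiles, by 1.09 points at the closest, in lists of unequal length. Relative to the genome-wide mean depth of each library, the summit stood at 80.8 and 6.06 in Ctrl and at 20.7 and 59.8 in cKO. By that measure the groups were not separated. Dlg4, which encodes PSD-95, the central scaffold of excitatory synapses, ranked at 73.7% and 94.0% in Ctrl and at 84.2% and 81.4% in cKO, so the groups overlapped.

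For the other pair the peak lay nearer to a neighbouring protein-coding gene. The Nlgn2 peak, 436 bp from the TSS of this neuroligin of inhibitory synapses, was 304 bp from the TSS of Tmem256, and its percentiles were 88.3% and 97.5% in Ctrl and 97.2% and 89.8% in cKO. The Dlg2 peak, 1128 bp upstream of its TSS, was 102 bp from that of Tmem126b, with 79.2% and 97.5% in Ctrl and 79.0% and 85.6% in cKO. Neither gene separated the groups. Without Nlgn2 and Dlg2 the number of members with a promoter peak was 32, 3, 17 and 29, and the difference between genotypes was again 5.5.

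Among vesicle proteins, Rab3a, the small GTPase that tethers vesicles, was the strongest, at 88.8% in Ctrl1, 86.9% in cKO1 and 93.4% in cKO2. Its summits lay on 88, 39 and 105 fragments, close to the TSS (115 bp upstream in Ctrl1). Synapsins differed among themselves: Syn2 and Syn3 had a peak in 3 lists, and Syn1 in Ctrl1 (75.1%) and cKO2 (66.0%). Syp, which encodes synaptophysin, was at 56.8% and 53.6% in the same libraries. Sv2b, a vesicle glycoprotein, was at 47.0% and 65.0% there, whereas its relative Sv2a had no promoter peak in any list.

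Of the synaptotagmins, Syt1, the trigger of fast release, was at 87.0% in Ctrl1, 86.9% in cKO1 and 81.6% in cKO2, on 68, 28 and 51 fragments. Syt7, a slower sensor, was at 70.2%, 73.5% and 60.5%. Syt4 had a peak in Ctrl1 (54.1%) and cKO2 (58.2%), and Syt2 in Ctrl1 alone (50.8%). None of the 4 had a peak in Ctrl2.

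All 4 SNARE genes had a promoter peak in Ctrl1 and cKO2, and 3 of them in cKO1. Vamp1, a vesicle SNARE used mainly in brainstem and spinal cord, ranked above Vamp2, the main forebrain form: 86.8%, 95.7% and 94.7% against 55.3%, 60.8% and 59.4% in Ctrl1, cKO1 and cKO2. Snap25, their partner on the plasma membrane, was at 78.0%, 62.8% and 65.2%. Stx1a lacked a peak in cKO1 and was at 62.3% and 64.2% in the other 2 libraries.

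Each active zone gene had a peak in Ctrl1 and cKO2. Pclo, which encodes the giant scaffold Piccolo, was the strongest, at 79.0%, 91.8% and 82.4% in Ctrl1, cKO1 and cKO2. Unc13a, which encodes the priming factor Munc13-1, was at 64.1%, 67.7% and 61.3%, so Ctrl1 lay between the cKO libraries, with no peak in Ctrl2. Bsn, which encodes Bassoon, had no peak in cKO1 and was at 48.9% and 54.1% in Ctrl1 and cKO2.

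Transmitter transporters differed from gene to gene. Slc17a7 (VGLUT1), the vesicular glutamate transporter of mature cortical and hippocampal neurons, was at 70.3% in Ctrl1, 88.6% in cKO1 and 89.5% in cKO2. Its peak, on 38, 33 and 72 fragments, lay 1658 to 1722 bp upstream of the TSS in those libraries, with the nearest other TSS 6284 bp away in Ctrl1. Slc17a6 (VGLUT2), which is used by subcortical and many immature neurons, had a peak in Ctrl1 alone (48.2%, 17 fragments). Slc32a1, the vesicular GABA transporter of inhibitory neurons, had none in any list.

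The kinase and Shank scaffold genes had promoters of low rank. Camk2a and Camk2b were at 45.4% and 45.1% in Ctrl1 and at 47.6% and 46.6% in cKO2, on 12 to 17 fragments, and neither had a peak in the other 2 lists. Shank2 and Shank3 were at 54.9% and 53.3% in Ctrl1 and at 51.6% and 47.8% in cKO2. The Shank2 values come from different promoters, in Ctrl1 one 283 kb from the first TSS and in cKO2 one at 174 kb. Shank1 had 1 peak, of 12 fragments, in Ctrl1 (43.7%). Any detected promoter peak gave at least 42.0% in Ctrl1 and 44.1% in cKO2, so Camk2a, Camk2b and Shank1 lay near the lowest values that a peak can have. In the shorter list of cKO1 that value was 59.7%, above the percentile of these 5 genes in Ctrl1 and cKO2. In all, 12 of the 34 members with a peak in Ctrl1 had one in cKO2 too but not in cKO1. Among protein-coding genes 3092 (14.1% of all) showed this pattern, of the 12728 with a peak in Ctrl1.

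Gene by gene, 8 members had a higher percentile in both cKO libraries than in both Ctrl libraries and 2 had a lower one, of the 34 with a peak in any list. Among all 13196 coding genes that had one anywhere, 20.5% were higher in this sense and 2.8% lower. The number of members higher was 4 in lists cut to equal length. It was 15 when Ctrl1 or cKO1 was left out, which needs fewer libraries to agree. The share over all protein-coding genes was not computed in these settings. The 8 were Slc17a7, Vamp1, Pclo, Nrxn2, Syn3, Rims2, Rims1 and Vamp2. None of them had a peak in Ctrl2, so their order against that library was fixed by the missing peak, and the comparison rests on Ctrl1. They were 8 (27.6%) of the 29 members with a peak but none in Ctrl2, beside 22.4% of all such protein-coding genes.

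Against Ctrl1 alone, the gap was widest for Slc17a7, whose lower cKO value (88.6%) was 18.4 points above 70.3%. With promoters of 1000 bp in place of 2 kb, 7 members were higher in both cKO libraries (share over all genes not computed). Slc17a7 was not one of them, since its peaks lay 1658 to 1722 bp from the TSS. Vamp1 was at 94.7% or more in cKO and 86.8% in Ctrl1. Syn3 was at 72.3% and 70.5% in cKO and 60.6% in Ctrl1. Rims2 was at 66.6% and 71.1% beside 61.9%, Pclo at 91.8% and 82.4% beside 79.0%, and Nrxn2 at 83.2% and 84.2% beside 81.3%. The Nrxn2 summit in Ctrl1, 73 bp from its TSS, was 52 bp from that of the non-coding gene Gm14965. The gap was smallest for Rims1, with 65.7% and 53.3% in cKO and 52.8% in Ctrl1. These are single libraries, and no gene was tested on its own.

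Peak depth did not follow the same order. Scaled depth, which expresses the fragments over the summit in units of the genome-wide mean depth of that library, was lower in cKO1 than in Ctrl1 for each of the 8. For Slc17a7 it was 23.4 in Ctrl1, 15.9 in cKO1 and 39.9 in cKO2. For Vamp1 it was 43.8, 22.7 and 52.0, and for Nrxn2 38.8, 14.9 and 37.6. The median over all genes with a promoter peak was also lower in cKO1 (11.6) than in Ctrl1 (23.4) and cKO2 (19.9), and a percentile removes that shift between libraries while a scaled depth does not.

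The 2 members with a lower percentile in both cKO libraries were Nlgn1 and Homer1. Nlgn1, a neuroligin of excitatory synapses, was at 59.9% and 91.7% in Ctrl and at 0% (no peak) and 58.4% in cKO. Its peak in Ctrl2 rested on 12 fragments. The peak was 888, 904 and 791 bp from the TSS of Nlgn1 in Ctrl1, Ctrl2 and cKO2, and nearer (379, 395 and 282 bp) to that of the non-coding gene A830092H15Rik. Any gene with a peak in that short list ranks at 91.7% or more, and Nlgn1 lay at that limit, whereas both cKO values of Homer1 lay above it. By scaled depth neither gene separated the groups. For Homer1 it was 80.8 and 6.06 in Ctrl1 and Ctrl2 and 20.7 and 59.8 in cKO1 and cKO2. For Nlgn1 it was 17.9 and 3.46 in Ctrl1 and Ctrl2 and 12.2 in cKO2. In the 3 libraries other than Ctrl2, 19 members had a peak in each, and of these 10 were higher in both cKO libraries than in Ctrl1 and 5 were lower, beside 35.6% and 28.1% of all genes with a peak in those 3 lists.

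In the 3 longer lists most summits lay close to the TSS. Of the strongest promoter peaks, 28 of 34 in Ctrl1, 16 of 19 in cKO1 and 25 of 31 in cKO2 were within 500 bp of a TSS of the gene. The median distance was 124, 128 and 98 bp in these libraries, beside 91, 97 and 96 bp over all genes with one. In Ctrl2 it was 403 bp, beside 141 bp, and 3 of the 5 were within 500 bp. Summit depth ranged from 12 to 131 fragments in Ctrl1, from 10 to 64 in cKO1 and from 14 to 108 in cKO2.

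**Figure D3:**
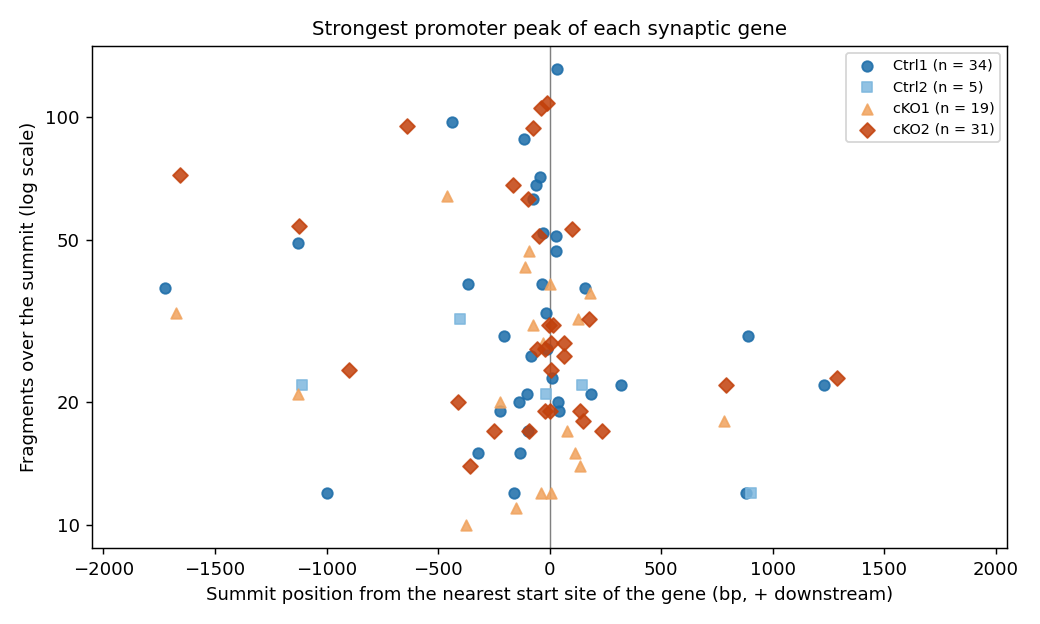
Position of the strongest promoter peak summit relative to the nearest TSS of the gene (bp, positive downstream) against the fragments over the summit (log scale), 1 point per gene and library. Most points lie within 500 bp of the TSS. The points farthest upstream are Slc17a7, and those near 1100 bp upstream are Dlg2.

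Several of these genes have alternative promoters, so the peaks were assigned to TSS regions, groups of TSSs (of the basic annotation set) over 4 kb apart. Neurexins, which can be made as a long alpha form from an upstream promoter or a short beta form from an internal one, differed between members. In Nrxn2 the peak lay at the first region in 3 lists (63 fragments in Ctrl1, 31 in cKO1 and 68 in cKO2), whose transcripts encode 1503 to 1703 residues, and the regions 9.19 and 79.1 kb downstream had none. In Nrxn3 it lay only at the last region, 1018 kb downstream, in the same 3 lists (29, 10 and 20 fragments). The transcripts from there encode 430 and 567 residues, whereas the first region, with no peak in any list, starts a transcript of 1571 residues. That region lies at chr12:88794504, inside the annotated gene, which starts at chr12:88722876. The gene start has no TSS in the basic set, so it was not searched as a promoter.

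Rims2, a RIM scaffold of the active zone, had a peak at both of its regions in 3 lists. Its first region carried 26, 16 and 30 fragments in Ctrl1, cKO1 and cKO2, and the region 461 kb downstream, which starts a transcript of 285 residues, carried 26, 14 and 31. Rims1 had peaks at its first region only. In Dlg4 the region 10.8 kb downstream had a peak in all 4 lists and the first region in 3. Dlg2 had its peak in 4 lists at the first region, shared with Tmem126b, and 3 regions further in were without a peak, apart from peaks of up to 16 fragments in Ctrl1 at 613 kb. The peak of Sv2b lay at an internal region 88.4 kb downstream and that of Syt2 at one 62.6 kb downstream, and in both genes the first region had none.

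CpG islands (CGIs), the DNA that the deleted KDM2B domain binds, overlapped a promoter of 27 of the 36 members, beside 58.8% of protein-coding genes. Members with a CGI had a promoter peak in 26, 5, 15 and 24 cases in Ctrl1, Ctrl2, cKO1 and cKO2, where the background share of CGI genes was 86.8%, 13.4%, 62.9% and 84.4%. In cKO1 the 15 of 27 were below that share, whereas in Ctrl1, Ctrl2 and cKO2 the members were above it. The 9 members without a CGI had one in 8, 0, 4 and 7 cases, where the share of genes without a CGI was 17%, 1.03%, 7.9% and 15.1%. Open promoters without a CGI included Syt1, Snap25, Syn3 and Nrxn3. Of the 8 members higher in both cKO libraries 7 had a CGI, beside 90.1% of all genes higher in this sense, and both lower members had one, beside 95.9%. A CGI was counted for the gene, not for the peak: in Rims2, one of the 7, the strongest peak lay at the internal TSS region, which has no CGI, and Sv2b (Ctrl1 and cKO2) and Shank2 (Ctrl1) had peaks only at regions without one.

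The repressor REST (NRSF) silences neuronal genes outside neurons through a long DNA element, RE1, and several synaptic genes are known targets. Its core was searched as TCAGCACC and GGACAG with 2 free bases between them, on both strands, with at most 2 mismatches in the 14 letters. Within 2 kb of a TSS a match was found in 10 of 36 members (27.8%), beside 7.58% of protein-coding genes, though genes with many TSSs offer more sequence. Sites with at most 1 mismatch in 4 of these genes are shown, read on their own strand, with capitals for matching letters: a pair in Snap25 at chr2:136714289-136714304 and chr2:136714339-136714354, and those of Syp at chrX:7638738-7638753, Syn1 at chrX:20921134-20921149 and Slc17a6 at chr7:51621864-51621879.
Snap25 first site: TCAGCACCctGGACAG
Snap25 second site: TCAGCACCgcGGACAG
Syp: cCAGCACCgtGGACAG
Syn1: TCAGCACCgcGGtCAG
Slc17a6: TCAGgACCacGGACAG

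The Syn1 and Syp sites, 138 bp upstream and 275 bp downstream of the TSS, lay inside a promoter peak in Ctrl1 and cKO2. The Slc17a6 site, 134 bp upstream, was inside the peak of Ctrl1, and the Snap25 pair, 819 and 869 bp downstream, inside a peak of cKO2. Syt4 had a match without mismatch 216 bp downstream of its TSS, inside a peak in the same libraries as Syn1. Of the 12 matches in members, 5 lay in a peak in Ctrl1, 5 in cKO2 and 0 in the other 2 lists. Syn1, Syp, Syt4, Slc17a6 and Shank1 had no promoter peak in those 2 lists, and the Snap25 peak of cKO1 did not reach its sites. Matches inside peaks were not counted over all genes. The search was made after the peaks of these genes were known, and a match does not show that REST is bound.

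Inside the genes, peaks per length were above those of genes at large in the 3 longer lists and below them in Ctrl2. The members span 8.76 Mb and held 151 gene-body peaks in Ctrl1, 9 in Ctrl2, 52 in cKO1 and 151 in cKO2. Per Mb this was 17.2, 1.03, 5.93 and 17.2, beside 15.0, 1.66, 5.26 and 14.1 over all protein-coding genes. At least 1 such peak was found in 24, 6, 17 and 25 members, where the background was 25.4%, 6.31%, 13.8% and 24.6% of protein-coding genes, most of them shorter. In Ctrl2, 8 of the 9 peaks (88.9%) were mostly repeat sequence, beside 58.3% of the gene-body peaks of all genes. In Ctrl1, cKO1 and cKO2 there were 4 such peaks each (2.65%, 7.69% and 2.65%), beside 4.02%, 13.5% and 5.53%.

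Gene-body peaks numbered 101.5 ± 70.0 for cKO against 80 ± 100.4 for Ctrl (n = 2 each), with exact permutation p = 1. Per 1000 peaks of the list it was 2.91 ± 0.680 and 2.27 ± 1.40, with exact permutation p = 0.667, and all 4 tested results had an adjusted p of 1. Both differences were positive (21.5 and 0.643) and became negative without Ctrl2 (−49.5 and −0.345). The difference in count was also negative without cKO2 (−28). In lists cut to equal length it was 3, with 8 and 9 peaks in Ctrl1 and Ctrl2 and 12 and 11 in cKO1 and cKO2.

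Merged over the lists, the peaks formed 198 regions, 190 in introns and 8 over exons. Of these 2 were present in 4 lists, 45 in 3, 68 in 2 and 83 in 1, where the shares for all protein-coding genes were 2.75%, 20.7%, 32.2% and 44.3%. Of the 198, 62 (31.3%) were in Ctrl1 and cKO2 alone, 2 (1.01%) in both cKO libraries alone and 1 (0.505%) in both Ctrl libraries alone. Over the 21123 such regions of all protein-coding genes these shares were 29.1%, 0.81% and 0.308%, close to those of the members. The 2 cKO regions were in Camk2b, 35.5 kb into the gene, and in Dlg2, and the latter was entirely repeat sequence. The Camk2b region carried 12 fragments in cKO1 and 46 in cKO2.

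The longest genes held most of the regions. Dlg2, of 1973 kb, had 34, 4, 18 and 27 gene-body peaks in Ctrl1, Ctrl2, cKO1 and cKO2, in 40 regions. One of them, at chr7:92264175-92265444 in an intron 1788 kb into the gene, was shared by all 4 lists and is not repeat sequence, unlike the other such region, with 39, 14, 40 and 57 fragments. Nrxn3, of 1612 kb, had 30, 0, 11 and 32 peaks, spread on both sides of the internal promoter. Its region at chr12:90274497-90275067, 462 kb past that promoter, was among the strongest, with 56, 42 and 59 fragments in Ctrl1, cKO1 and cKO2.

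Syn3 followed with 14, 1, 3 and 12 peaks, Nlgn1 with 12, 0, 3 and 10 and Syt1 with 10, 1, 3 and 10. A Syt1 region 430 kb into the gene carried 45, 23 and 54 fragments in the 3 longer lists, and a Rims2 region 16.9 kb from its second promoter 43, 25 and 84. Shank2 had 5, 0, 1 and 5 peaks, Sv2b 4, 1, 0 and 6 and Camk2b 3, 0, 2 and 5. Among short genes, Syp held 1 region, 10.5 kb from its TSS at chrX:7648664-7649335 and over a CGI, on 80, 38 and 62 fragments. Unc13a (60, 33 and 57) and Dlg4 (87, 37 and 90) likewise had 1 region over a CGI in 3 lists.

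**Figure D4:**
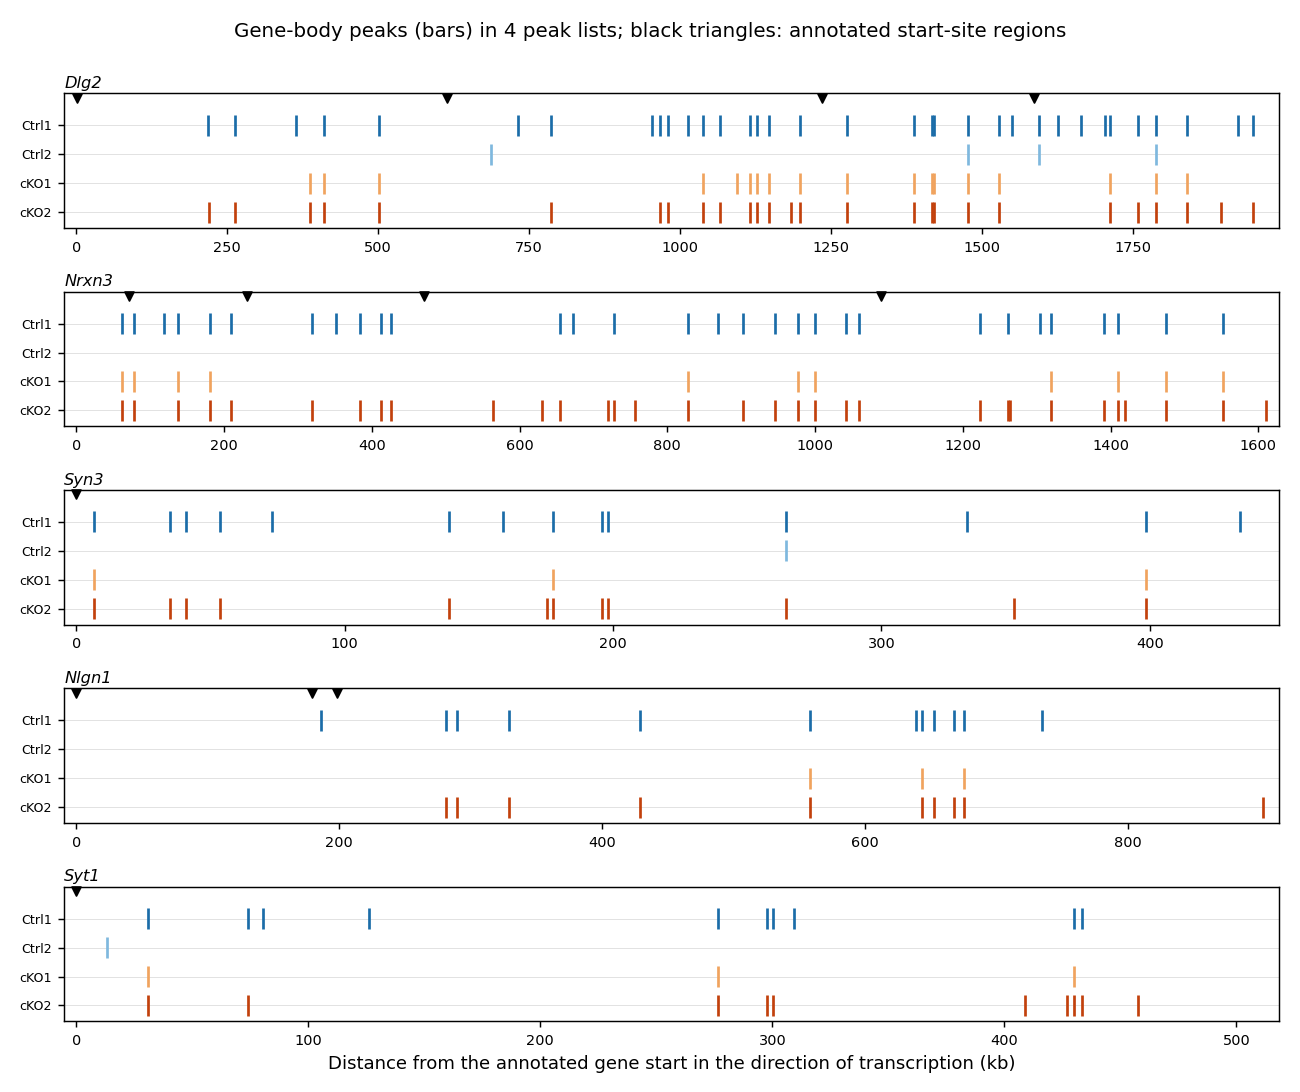
Gene-body peaks of the 5 genes with most of them, by distance from the annotated gene start (kb). Each bar is a peak region, each row a library, and black triangles mark TSS regions. Many positions are shared by Ctrl1 and cKO2, cKO1 has fewer peaks than either, and Ctrl2 has 4 peaks in Dlg2, 1 each in Syn3 and Syt1 and 0 in Nrxn3 and Nlgn1.

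Other genes of the same machinery, 68 chosen by role and none of them a member, were counted in the same way. They had a promoter peak in 58, 5, 38 and 57 cases, with a mean percentile of 55.2%, 7.09%, 42.8% and 55.7% in Ctrl1, Ctrl2, cKO1 and cKO2. Of the 55 with a peak but none in Ctrl2, 15 (27.3%) were higher in both cKO libraries than in Ctrl1, beside 22.4% of all such genes. The 6 genes of vesicle recycling had a peak in each of the 3 longer lists. Of 16 further vesicle proteins, 11, 1, 4 and 12 had one, and Rph3a, Doc2a, Doc2b and Slc17a8 had none in any list.

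Glutamate and GABA receptor genes had a promoter peak in 31, 0, 19 and 29 of 39 cases. Their mean percentile was 47.6%, 0%, 35.1% and 46.0%, below that of the synaptic genes in each library. With no receptor peak in Ctrl2, a lower value in both cKO libraries was not possible, and a higher one was decided by Ctrl1. Of the 31 with a peak, 10 (32.3%) were higher, beside the 22.4% of protein-coding genes given above. The difference between these gene lists was not tested.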

How the data were processed

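ATAC-seq peak lists of 4 P0 hippocampus libraries (2 cKO, 2 Ctrl) were analysed. The authors aligned Cutadapt-trimmed read pairs to mm10 (Bowtie2), discarded blacklisted, mitochondrial and duplicate reads (Picard) and corrected positions for the Tn5 offset. They then ran MACS2 2.2.7.1 per library, with neither pooling nor a control. Each deposited list gives a display score (not used), the fold enrichment at the summit, −log10 p-values, −log10 q-values and the summit offset. The lists share a q-value threshold, which falls at a different p-value in each, so folds and p-values were ranked within a list. Percentiles, peak counts and fragments are given side by side by library, and of the last only scaled depth takes account of sequencing depth.

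TSSs came from the basic set of GENCODE M21 (77221 TSSs) and sequences from GRCm38.p6. Fold and p-value together gave the whole number of fragments at a summit, within 0.01 of the −log10 p for 99.4 to 99.9% of peaks per list, and the lowest local background served as the genome-wide mean depth. CGIs were found in the genome sequence (200 bp or longer, GC content of 50% or more and a CpG ratio, observed to expected, of 0.6 or more). Peaks were called repeat sequence when at least 50% masked. Printed windows end before the TSS so that they hold no exon. Groups were compared by exact two-sided permutation tests over the 6 assignments of libraries, adjusted by Benjamini-Hochberg over 4 results, and the steps were tested on simulated data (Python 3.11.15, scipy 1.17.1).

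The members and gene lists were chosen with earlier results of these data known. All members were counted by role. By rule, values per library were given for the 10 members with the highest mean percentile, those with a peak in all 4 lists, those whose groups did not overlap and the 8 with most gene-body peaks. Those of other members were added by role after they had been seen. Alternatives were equal-size lists, a −log10 q of at least 5, lists without repeat sequence, narrower promoters, other ranks, leaving out each library and a replicate block.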

Additional observations from a re-analysis of the deposited data

How the results depend on the processing

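The difference between genotypes depended on which library was included. Leaving out each library in turn gave differences (cKO minus Ctrl) of −9 to 20 members with a promoter peak, −11.6 to 36.6 points of mean percentile, −49.5 to 92.5 gene-body peaks and −0.345 to 1.63 gene-body peaks per 1000. Without Ctrl2 they were −9, −11.6, −49.5 and −0.345, and without cKO2 the members and gene-body peaks were −0.5 and −28. The number of members higher in both cKO libraries ranged from 10 to 15 in these comparisons, which need fewer libraries to agree. In equal-size lists of 7037 peaks, 10, 5, 10 and 10 members had a promoter peak in Ctrl1, Ctrl2, cKO1 and cKO2. In these lists 4 members were higher in both cKO libraries. There the mean percentile differed by 6.18 points, and the gene-body peaks (8, 9, 12 and 11) by 3, both with an exact permutation p of 0.333. When genes lacking a peak were given their mid-rank, the mean percentile differed by 0.761 points in place of 12.5. The cause of these shifts was not tested. No alternative gave a p below 0.333, the smallest possible, so the tests say nothing about stability. With a replicate block (same-numbered libraries paired) the differences were 5.5 members, 12.5 points, 21.5 peaks and 0.643 per 1000, each with an exact sign-flip p of 1, and 10 members were higher in both pairs. Except without Ctrl2, no share over all protein-coding genes was computed for the counts of members higher given here. They describe the members only. Over 13196 genes the replicate differences of the genotypes correlated at r = 0.053. Of these genes 11381 had no promoter peak in Ctrl2, so this value cannot decide whether replicate numbers pair the libraries. The block for the count of members, and the removal of the 2 genes with a nearer protein-coding neighbour, were chosen after seeing the data. The depth of 10 to 131 fragments at a summit limits how finely members can be ranked.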

Other observations

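Among the 68 other genes of the synaptic machinery, 5 (7.35%) had a promoter peak in all 4 lists, beside 8.02% of protein-coding genes, and are named here after their values were seen. Ptprs, a receptor phosphatase that organises presynaptic terminals, was at 97.5%, 97.3%, 95.5% and 96.3% in Ctrl1, Ctrl2, cKO1 and cKO2. Ppfia3, a liprin of the active zone, was at 95.7%, 97.8%, 99.3% and 94.7%. Napa, which encodes the SNARE recycling factor alpha-SNAP, was at 90.4%, 96.3%, 89.2% and 88.3%. Gphn, which encodes gephyrin, the scaffold of inhibitory synapses, was at 85.7%, 98.2%, 97.6% and 82.3%, and Syt11, a synaptotagmin that does not bind calcium, at 79.4%, 92.5%, 84.3% and 86.8%.

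By group, 9, 1, 7 and 9 of 10 genes of the fusion machinery had a promoter peak, as did 10, 1, 6 and 10 of 12 active zone genes, 8, 1, 6 and 8 of 9 adhesion genes and 14, 1, 9 and 12 of 15 scaffold and kinase genes. Of 2 receptor genes also named after their values were seen, Grm7, a presynaptic metabotropic glutamate receptor, had the widest gap among the receptors higher in both cKO libraries, at 81.5% and 73.9% in cKO and 60.0% in Ctrl1, with no peak in Ctrl2. Grin1, which encodes the obligatory NMDA receptor subunit, was at 66.4% and 62.3% in cKO and 51.1% in Ctrl1.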
